A study of Mus musculus with 6 samples.

Results

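The genes described here are 7 mouse ion channel genes, Trpv4, Piezo1, Piezo2, Trpm7, Tmem63a, Tmem63b and Lrrc8a, chosen by name from the Piezo, Trp, Tmem63 and volume-regulated channel families and taken from a count table of 55401 genes. All 7 were found in the table and all 7 passed the filter on low counts that left 16260 genes for testing. The tissue was articular cartilage of mouse knees at 10 weeks of age, sequenced as RNA in 3 libraries labelled adseverin knockout (cKO) and 3 labelled wild type (WT). Adseverin, encoded by Scin, is a protein that cuts and caps actin filaments. Mice of both groups had been given tamoxifen from 8 weeks of age, at 1.5 mg per 10 g body weight on each of 5 days in a row. The sources used here give neither the Cre driver nor the deleted exons, and do not say whether WT mice carried a floxed allele.

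These channels turn force on the cell membrane, or swelling of the cell, into an ion current. In chondrocytes TRPV4 is known as the calcium channel that opens under osmotic and physiological mechanical load, whereas PIEZO1 and PIEZO2 are known for calcium entry at injurious strain. TRPM7 joins a divalent cation channel to a kinase, TMEM63A and TMEM63B are mechanically opened cation channels related to the plant OSCA channels, and LRRC8A is the subunit without which the volume-regulated anion channel does not form.

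Trpv4 was by far the most abundant of the 7 and Piezo1 stood far below it, so the sequence before the start of each gene is shown. Both are the 250 bases up to the RefSeq start on GRCm38.p6, written 5′ to 3′ on the gene's own strand. Capitals mark a GC box core (GGGCGG) and a TATA box core (TATAAA), searched on both strands.
Trpv4, minus strand, chr5:114658422-114658671: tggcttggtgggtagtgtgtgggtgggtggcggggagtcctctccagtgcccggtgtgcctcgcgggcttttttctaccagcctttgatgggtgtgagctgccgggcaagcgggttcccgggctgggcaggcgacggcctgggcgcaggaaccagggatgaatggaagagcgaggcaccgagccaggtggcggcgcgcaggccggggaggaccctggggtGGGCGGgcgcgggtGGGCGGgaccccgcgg
Piezo1, minus strand, chr8:122551330-122551579: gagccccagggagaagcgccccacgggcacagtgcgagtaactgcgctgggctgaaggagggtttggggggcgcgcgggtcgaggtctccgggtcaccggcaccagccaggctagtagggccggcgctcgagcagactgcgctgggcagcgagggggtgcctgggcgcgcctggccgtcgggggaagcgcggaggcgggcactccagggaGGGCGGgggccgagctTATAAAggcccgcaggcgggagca

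The Trpv4 window held 2 GC box cores, the nearer ending 11 bases before the start, and no TATA box core. The Piezo1 window held 1 GC box core and 1 TATA box core, and its TATA box core ran from 24 to 19 bases before the start. Over 32851 mouse promoter windows of the same length, 32.7% held GGGCGG and 12.4% held TATAAA. Windows were found for 6 of the 7 genes, and their CpG counts ran from 22 in Trpv4 to 31 in Tmem63b, against a median of 6 over all windows. None of the 6 windows held the SOX core AACAAT, the TEAD core CATTCC or the AP-1 site TGAGTCA, which 9.42%, 12.6% and 4.46% of all windows held. A match or its lack describes letters only.

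The libraries held 22664828 to 31014996 reads in cKO and 23018642 to 27576134 reads in WT. Levels are given as CPM (the read count scaled to library size with TMM factors), and levels of different genes are compared as CPM per kb of exon. The deleted gene, Scin, measured 39.1, 29.9 and 29.4 CPM in the cKO libraries, against 186, 185 and 219 CPM in the WT libraries, and every library matched its label. The labels name native articular chondrocytes. Col2a1, the type II collagen gene of cartilage, measured 15914 to 20596 CPM in cKO and 14452 to 15301 CPM in WT. The 10 chondrocyte markers together reached 34122 to 39182 CPM in cKO and 31545 to 32603 CPM in WT. Of these 10, 8 had a log2 fold change (cKO minus WT) above 0 and 2 below 0. Acan, the aggrecan gene, was among the lower ones, at 708 to 989 CPM in cKO and 1273 to 1440 CPM in WT (edgeR adjusted p = 0.535). The 8 osteoblast and osteocyte markers summed to 30183 to 33751 CPM in cKO and 26931 to 30078 CPM in WT, most of it from Ibsp (bone sialoprotein), at 24365 to 30048 CPM in cKO and 23181 to 25513 CPM in WT. The osteocyte gene Dmp1 measured 984 to 1335 CPM in cKO and 761 to 1268 CPM in WT, and Sost 53.1 to 82.3 CPM in cKO and 43.7 to 61.7 CPM in WT, so transcripts known from bone were present. Markers of fibroblasts and of macrophages lay below 0 in the comparison for 8 of 8 genes each (median log2 fold changes of -0.33 and -0.29), and erythroid markers above 0 for 8 of 8 (median 0.31). Fibroblast markers summed to 14981 to 19213 CPM in cKO and 16831 to 21198 CPM in WT, macrophage markers to 620 to 754 CPM in cKO and 761 to 956 CPM in WT, and erythroid markers to 2889 to 4405 CPM in cKO and 2759 to 3097 CPM in WT. Skeletal muscle markers stood at 1313 CPM in WT 2 and at 221 CPM or less in each other library. The part of these cells in the channel levels was not tested, and in such bulk samples fewer cells of a type cannot be told apart from less RNA per cell.

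The channel genes spanned a wide range of levels, and their order was nearly the same in every library. Over the 6 libraries Trpv4 averaged 80.3 ± 5.84 CPM per kb (SD, n = 6), Tmem63a 27.5 ± 2.14, Lrrc8a 8.44 ± 1.51, Trpm7 8.29 ± 0.74, Tmem63b 4.36 ± 0.488, Piezo1 2.16 ± 0.321 and Piezo2 0.168 ± 0.0943 CPM per kb. The ranges of neighbours in this order did not overlap, except for Lrrc8a and Trpm7, which differed by less than their spread. That holds with all exon bases counted. With exon bases of no other gene the mean of Lrrc8a was 26.7 CPM per kb. Trpv4 lay at percentile 96.9 of the 16260 tested genes in level per kb, Tmem63a at 89.5, Piezo1 at 41.3 and Piezo2 at 4.1. Dividing by coding length left the order as it was apart from Lrrc8a (15 CPM per kb of coding sequence) and Trpm7 (16.8), which changed places. The coding length of Lrrc8a still holds bases shared with another gene.

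**Figure D1:**
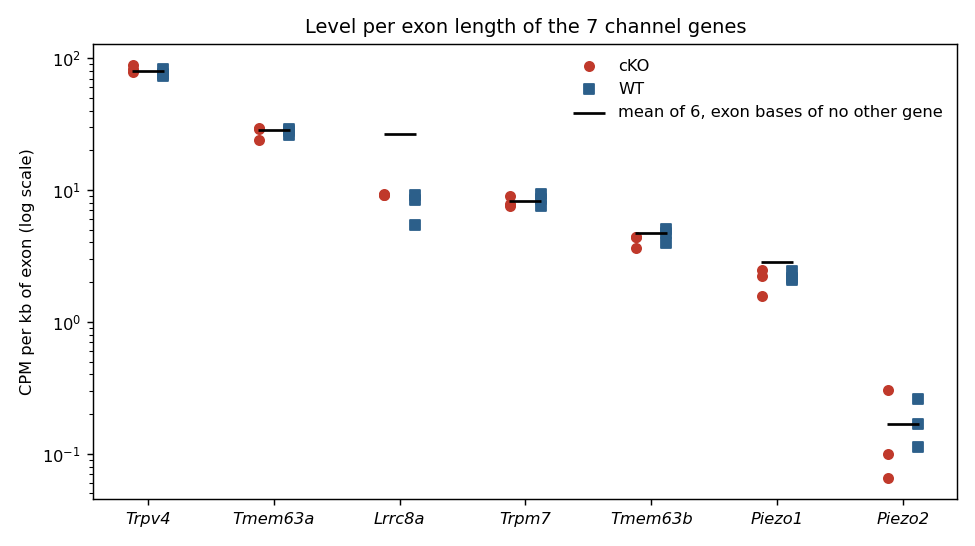
Level of each channel gene in CPM per kb of exon, on a log axis, in each library (cKO circles, WT squares). The black bar is the mean of the 6 libraries when only exon bases of no other gene are counted in the length, which puts Lrrc8a at 26.7 instead of 8.44 CPM per kb and Piezo1 at 2.86 instead of 2.16.

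The design sets cKO against WT cartilage to find transcripts that change when Scin is deleted. None of the 7 channel genes passed an adjusted p of 0.05 (edgeR quasi-likelihood test, Benjamini-Hochberg over all tested genes), where 0.00615% of all genes passed. That share is 1 gene, the deleted gene Scin itself. At an unadjusted p under 0.05 there were 0 of 7 by edgeR, against 6.5% of all genes (3.54% higher and 2.96% lower in cKO). DESeq2, which called 0.444% of all genes, and limma-voom also called 0 of 7 after adjustment. The log2 fold changes (cKO minus WT) ran from -0.22 to 0.27, with 2 above 0, 5 below 0 and a median of -0.06, beside a median of 0.00 over all tested genes. Nothing in the labels ties each library to its own mouse, and p-values here reflect only how these samples differ among themselves, which may be technical.

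**Figure D2:**
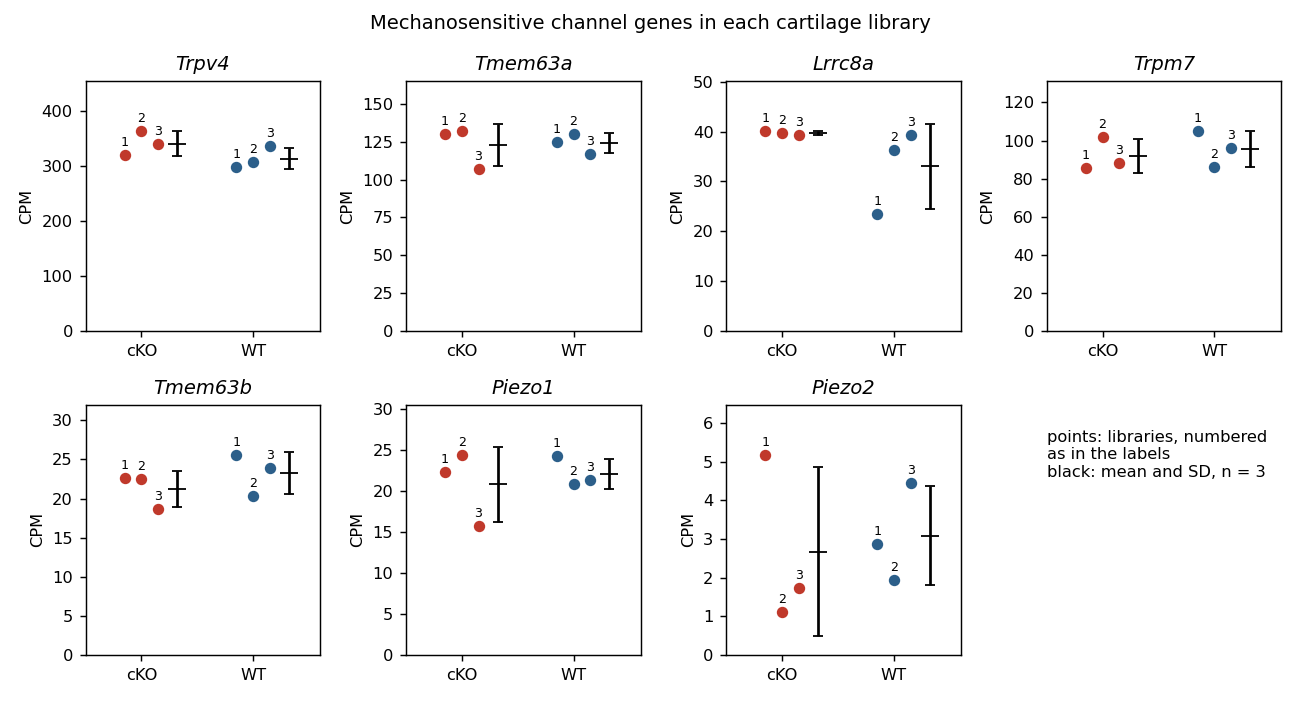
CPM of each channel gene in the cKO (left, red) and WT (right, blue) libraries, numbered as in the labels, with mean and SD of 3 in black; each vertical axis starts at 0. Points of the groups interleave in every panel but that of Lrrc8a, where WT 1 stands alone at 23.4 CPM.

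Trpv4 (ENSMUSG00000014158, GRCm38 chromosome 5, 114622152 to 114658421, minus strand, 16 exons in the transcript with the longest coding sequence) measured 320, 364 and 340 CPM in the cKO libraries, against 299, 307 and 336 CPM in the WT libraries. The groups overlapped, since WT 3 lay above cKO 1. Its log2 fold change was 0.12 ± 0.08 (SE; 95% interval -0.08 to 0.31; edgeR adjusted p = 0.873), so a rise beyond 1.24-fold or a fall below 0.949 of the WT level lies outside the interval. Trpv4 varied little between libraries of a group, with a within-group SD of 0.0911 on the log2 scale, which 8.1% of tested genes had or fell below. Of the summed level per kb of Trpv4, Trpm7 and 27 further TRP channel genes, Trpv4 alone made up 49.1% ± 1.12 in cKO and 49.2% ± 1.01 in WT (SD, n = 3 each).

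Piezo1 (ENSMUSG00000014444, chromosome 8, 122481698 to 122551329, minus strand) measured 22.3, 24.4 and 15.7 CPM in the cKO libraries, against 24.2, 20.8 and 21.3 CPM in the WT libraries. cKO 3 was the lowest of the 6 and cKO 2 the highest, so the WT values lay inside the cKO range. The log2 fold change was -0.09 ± 0.19 (95% interval -0.51 to 0.34; edgeR adjusted p = 0.968) and turned to 0.08 without cKO 3. Trpv4 exceeded Piezo1 per kb by 41.4 ± 9.97-fold in cKO and 34.9 ± 4.29-fold in WT.

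Piezo2 (ENSMUSG00000041482, chromosome 18, 63010213 to 63387183, minus strand), the PIEZO channel best known from touch and proprioceptive neurons, had few reads. It had 117, 34 and 41 reads in the cKO libraries, against 81, 44 and 117 reads in the WT libraries, over 17162 exon bases. These reads make 5.18, 1.12 and 1.72 CPM in cKO, against 2.88, 1.93 and 4.45 CPM in WT. The log2 fold change of -0.22 ± 0.61 had a 95% interval from -1.61 to 1.18 (edgeR adjusted p = 0.979), and leaving out single libraries moved it between -1.12 and 0.16. The lowest value came with cKO 1 left out, the highest with cKO 2 left out, and it also turned positive with cKO 3 (0.02) or WT 3 (0.14) left out, so no direction can be given. Its within-group SD was 0.883 on the log2 scale, at percentile 88.6 of the tested genes. The 8 nerve and Schwann cell markers summed to 201 to 245 CPM in cKO and 185 to 240 CPM in WT, and 5 of the 8 passed the filter. Of the 8, Nefl was listed at 0 reads in every library, and Sox10 had 11 reads in WT 2 and 0 elsewhere. The part of nerve and Schwann cells in the Piezo2 values was not tested.

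Trpm7 (ENSMUSG00000027365, chromosome 2, 126791565 to 126876230, minus strand) measured 85.4, 102 and 88.3 CPM in the cKO libraries, against 105, 86.2 and 96.2 CPM in the WT libraries. The groups overlapped nearly completely. The log2 fold change was -0.06 ± 0.11 (95% interval -0.31 to 0.19; edgeR adjusted p = 0.965) and stood at 0.01 without WT 1.

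The TMEM63 genes differed from each other far more than either did between the groups. Tmem63a (ENSMUSG00000026519, chromosome 1, 180942344 to 180975112, plus strand) measured 130, 132 and 107 CPM in the cKO libraries, against 125, 130 and 117 CPM in the WT libraries. Tmem63b (ENSMUSG00000036026, chromosome 17, 45660171 to 45686905, minus strand) measured 22.6, 22.5 and 18.6 CPM in the cKO libraries, against 25.6, 20.3 and 23.9 CPM in the WT libraries. Both genes overlapped between the groups, and cKO 3 held the lowest value of each. Their log2 fold changes were -0.01 ± 0.10 (95% interval -0.25 to 0.22) and -0.13 ± 0.15 (95% interval -0.48 to 0.21), with edgeR adjusted p-values of 0.993 and 0.927. That of Tmem63a turned to 0.08 without cKO 3 and to 0.02 without WT 2, while that of Tmem63b kept its sign and lay between -0.23 (WT 2 left out) and -0.05 (cKO 3 left out). Per kb, Tmem63a stood above Tmem63b by 6.52-, 6.66- and 6.54-fold in the cKO libraries, against 5.53-, 7.28- and 5.56-fold in the WT libraries. Tmem63c, the third family member, had 1 read in cKO 1 and 0 in the other libraries.

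Lrrc8a (ENSMUSG00000007476, chromosome 2, 30237715 to 30263790, plus strand) measured 40.1, 39.7 and 39.4 CPM in the cKO libraries, against 23.4, 36.4 and 39.3 CPM in the WT libraries. The cKO values lay within 1 CPM of each other and all above the WT values, but WT 3 lay barely below them. Groups that do not overlap were found for 1 of the 7 channel genes, and for 12.3% of all tested genes (6.41% higher and 5.89% lower in cKO). The log2 fold change was 0.27 ± 0.19 (95% interval -0.16 to 0.70; edgeR adjusted p = 0.873), and it came to 0.07 without WT 1 and to 0.41 without WT 3. WT 1 also held the highest summed level of osteoclast markers, 2040 CPM, where the other 5 libraries held 833 to 1628 CPM; the part of those cells in the Lrrc8a value was not tested.

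**Figure D3:**
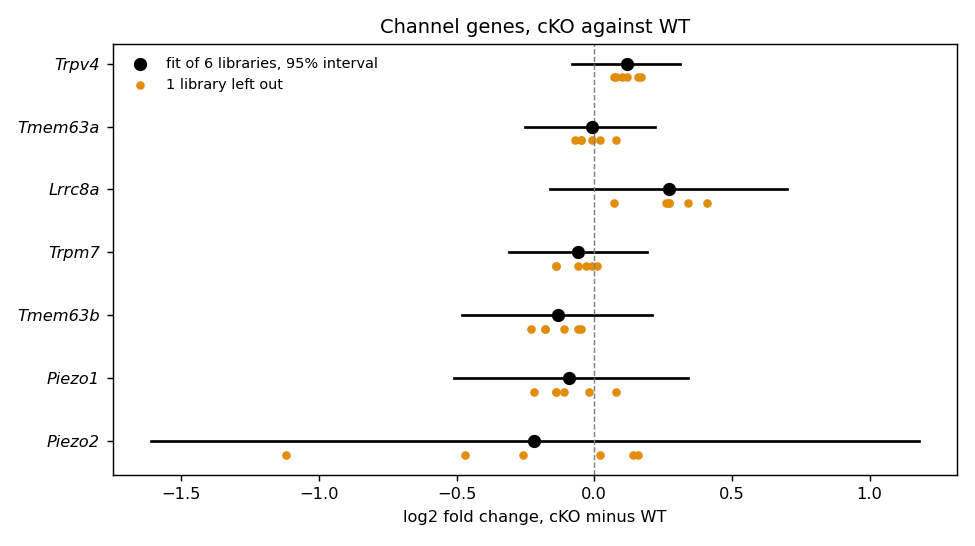
Log2 fold change (cKO minus WT) of each channel gene with its 95% interval in black, and the same value with each library left out in orange. Every interval spans 0, and the interval of Piezo2, -1.61 to 1.18, is the widest.

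The counts of Piezo1 and Lrrc8a are touched by other genes at the same place. In the GENCODE M21 annotation of GRCm38, 68.3% of the 4308 exon bases of Lrrc8a are also exon bases of another gene, almost all of them of Gm28035, a protein-coding model on the same strand. Gm28035 had 1, 0 and 0 reads in the cKO libraries, against 0, 0 and 1 reads in the WT libraries, although it shares 2853 bases with Lrrc8a. Reads on those bases were therefore not counted for both genes. For Piezo1, 24.6% of 9935 exon bases are covered on the opposite strand by Ctu2, a gene for tRNA thiolation, which had 176, 205 and 255 reads in cKO, against 252, 223 and 225 reads in WT. The sources used here do not say whether the submitters' counting gave such reads to Lrrc8a or to neither gene, or whether it used strand. If to neither, the 8.44 CPM per kb of Lrrc8a is too low. With the length cut to exon bases of no other gene, a setting chosen after the data were seen, Lrrc8a came to 26.7 CPM per kb, beside 28.5 for Tmem63a, and Piezo1 to 2.86 CPM per kb. By the mean of the 6 libraries, Lrrc8a ranked between Tmem63a and Trpm7 with either exon length, but with the shorter length it stood close to Tmem63a. The order within single libraries was not examined with the shorter length. Per kb of coding sequence Lrrc8a fell below Trpm7, at 15 against 16.8. The coding length of Lrrc8a, 2430 bases, exceeds the 1364 exon bases of that gene alone, so it holds shared bases too. If reads on shared bases went to neither gene, the 15 is also too low, and its order against Trpm7 is not settled by coding length. Trpv4 shares no exon base with another gene.

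**Figure D4:**
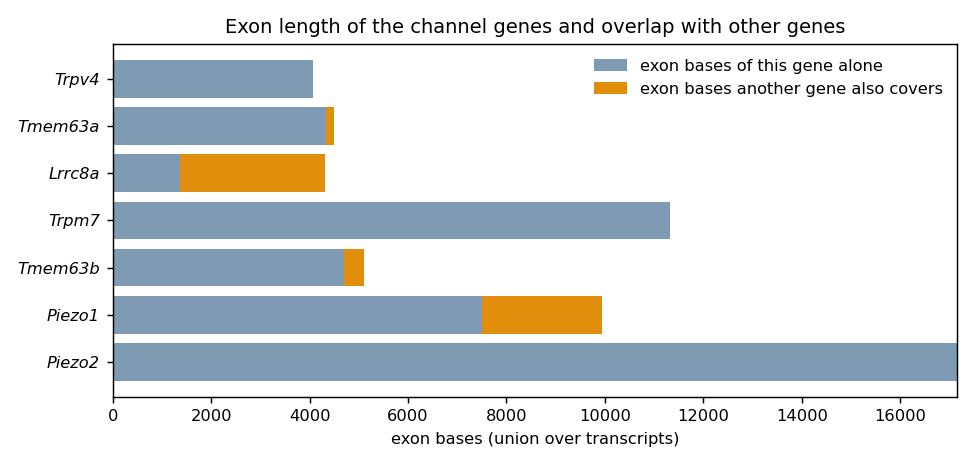
Exon bases of each channel gene, split into those of the gene alone (blue) and those that another annotated gene also covers (orange). Lrrc8a keeps 1364 of 4308 bases for itself and Piezo1 7494 of 9935, while Trpv4, Trpm7 and Piezo2 share none.

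LRRC8A builds the anion channel together with other LRRC8 subunits, and 3 of its 4 partner genes passed the filter. Per kb of all exon bases, Lrrc8a made up 47% ± 3.05 of the summed LRRC8 level in cKO and 42.4% ± 7.2 in WT, and Lrrc8c 35.6% ± 4.82 in cKO and 39.5% ± 4.4 in WT (SD, n = 3 each). Lrrc8d and Lrrc8b followed, at 13.3% ± 1.83 and 3.93% ± 0.771 over 6 libraries. With exon bases of no other gene, the share of Lrrc8a was 71.5% ± 4.91 over 6 libraries. None of the 3 partners passed the threshold, and none had an unadjusted p under 0.05. Lrrc8c had a log2 fold change of 0.00 ± 0.15, Lrrc8d of -0.09 ± 0.13 and Lrrc8b of 0.36 ± 0.27; the last did not overlap between the groups, at 6.42, 5.33 and 4.9 CPM in cKO, against 4.73, 3.64 and 4.6 CPM in WT.

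Beyond Trpv4 and Trpm7, 13 of 27 further TRP channel genes passed the filter and 14 did not. Of the 14, 5 had no read in any library, Trpv1, Trpv5, Trpc2, Trpc4 and Trpc7, and none of the others exceeded 15 reads in a library. Pkd2 (polycystin-2, a cation channel of primary cilia) was second to Trpv4 at 31.7 ± 3.27 CPM per kb, and Mcoln2, a lysosomal TRP channel, came next at 15.9 ± 4.41 CPM per kb (SD, n = 6). None of the 13 passed the threshold by edgeR, with 7 above 0 and 6 below 0 (median 0.12). At an unadjusted p under 0.05 there was 1 of 13, beside 6.5% of all tested genes, and groups that do not overlap were found for 1 of 13, beside 12.3%. Both counts were Mcoln2, with 53.2, 70.2 and 67.5 CPM in the cKO libraries, against 37, 36.1 and 50.4 CPM in the WT libraries. The groups did not overlap, and the log2 fold change was 0.63 ± 0.17 (edgeR adjusted p = 0.618). At the ends stood Trpm2 at 0.74 ± 0.75 and Trpc6 at -1.13 ± 0.67, both under 10 CPM in every library.

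**Figure D5:**
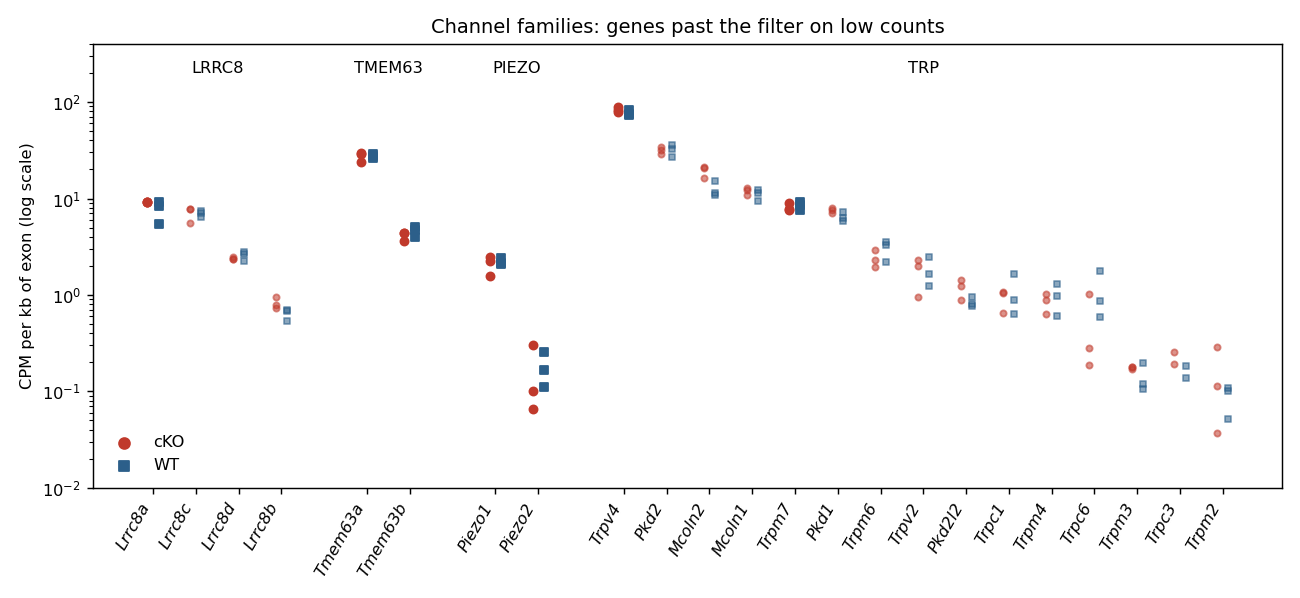
Level in CPM per kb of exon (log axis) of every LRRC8, TMEM63, PIEZO and TRP gene past the filter, in the cKO (red circles) and WT (blue squares) libraries; the genes described here are drawn larger and libraries at 0 are left out. Trpv4 stands at 73.3 to 89.2 CPM per kb and Pkd2 at 27.1 to 36.2.

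Of 8 further mechanically gated channel genes 4 passed the filter, and none passed the threshold or an unadjusted p under 0.05 (2 above 0, 2 below 0, median -0.06). Tmem120a, first described as a mechanosensitive channel named TACAN, stood at 31 ± 3.48 CPM per kb and had a log2 fold change of 0.21 ± 0.12. Kcnk2, which encodes the stretch-activated potassium channel TREK-1, stood at 2.76 ± 0.615 CPM per kb with -0.12 ± 0.26. Kcnk10 had -0.58 ± 1.20 at under 1 CPM in every library.

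Genes that act with or downstream of the channels were taken as further lists, and 87 of 111 genes found in the table passed the filter over these and the lists above. None of the 87 passed the threshold by edgeR, the smallest adjusted p being 0.618. At an unadjusted p under 0.05 there were 9, or 10.3%, 5 higher and 4 lower in cKO, beside 6.5% of all tested genes; groups that do not overlap were as many, 10.3%, beside 12.3% of all tested genes. The median of the 87 was 0.01 on the log2 scale, and 44 lay above 0.

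Among regulators of PIEZO and TRPV4, 4 of 10 lay above 0 and 6 below 0. Pacsin3, a membrane-bending protein that binds TRPV4, measured 35.5, 43.2 and 32.8 CPM in cKO, against 30.5, 32.8 and 33.1 CPM in WT. The groups overlapped, and its log2 fold change was 0.21 ± 0.14. It was -0.45 ± 0.36 for Map7, a microtubule-binding protein.

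Calcium entry, store and export genes showed no member at an unadjusted p under 0.05 (8 above 0, 6 below 0, median 0.00). Stim2, the calcium sensor of the endoplasmic reticulum, had a log2 fold change of 0.00 ± 0.11 and Atp2b1, a calcium pump of the plasma membrane, 0.05 ± 0.11. Atp2b4 and Cacna1g marked the ends at 0.33 ± 0.23 and -0.79 ± 0.65. Of the 15 calcineurin, NFAT and CaMK genes, 7 lay above 0 and 8 below 0 (median 0.00). Rcan1, a calcineurin inhibitor that is itself induced by calcineurin and NFAT, measured 207, 171 and 146 CPM in cKO, against 198, 227 and 204 CPM in WT, with overlap and a log2 fold change of -0.26 ± 0.13. Ppp3ca, the catalytic calcineurin subunit, had 0.07 ± 0.09 and Nfatc4 0.32 ± 0.37. Nfatc1, named because of its unadjusted p, had -0.21 ± 0.09 (edgeR adjusted p = 0.763).

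Of 11 genes of ATP release and purinergic signalling, 7 lay above 0 and 4 below 0, and 3 had an unadjusted p under 0.05, as did 6.5% of all tested genes. Gja1, which encodes connexin 43, measured 644, 430 and 545 CPM in cKO, against 826, 587 and 740 CPM in WT. cKO 1 lay above WT 2, so the groups overlapped, and the log2 fold change was -0.41 ± 0.17 (edgeR adjusted p = 0.726). The nucleotide receptor genes P2ry2 and P2ry6 had 0.65 ± 0.28 and -0.71 ± 0.30, and P2rx4 had 0.11 ± 0.12. Beside these values, macrophage and osteoclast markers had medians of -0.29 and -0.20; their part in them was not tested.

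Of 17 genes of osmotic and volume regulation, 9 lay above 0 and 8 below 0 (median 0.01), and 3 had an unadjusted p under 0.05, all higher in cKO, where 3.54% of all tested genes were. Slc38a2, an amino acid transporter induced by hypertonic stress, measured 233, 218 and 261 CPM in cKO, against 178, 180 and 206 CPM in WT, a log2 fold change of 0.33 ± 0.10 with no overlap (edgeR adjusted p = 0.658). Nfat5, the transcription factor of the hypertonic response, and Kcnma1, the large-conductance calcium-activated potassium channel, were named because of their unadjusted p, with 0.27 ± 0.12 and 0.18 ± 0.08 and an edgeR adjusted p of 0.752 each. The taurine transporter Slc6a6 and the betaine transporter Slc6a12, the most abundant of the list per kb, had 0.10 ± 0.10 and 0.21 ± 0.16, and the water channel Aqp1 had -0.49 ± 0.28.

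For each channel gene, the tested gene with the most similar profile over the 6 libraries was found among 11867 candidates, as the smallest root mean square difference of log2 CPM centred on its mean. These were Rmnd5b for Trpv4 (difference 0.0144), Tmem30a for Tmem63a (0.0187), Napg for Tmem63b (0.0264), Dld for Trpm7 (0.039), Mavs for Piezo1 (0.0487), Pik3c3 for Lrrc8a (0.0693) and Abcb1b for Piezo2 (0.113). Pik3c3, like Lrrc8a, was lowest in WT 1, at 73.3, 72.5 and 65.3 CPM in cKO, against 38.4, 66.9 and 67.1 CPM in WT. Each gene was picked for its match over these same 6 libraries, so a shared low value follows from the choice and is no separate observation. Close matches over 6 values are likely among so many candidates.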

How the data were processed

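The deposited table holds read counts per Ensembl gene, not normalized. Per the submitters' processing notes, the tools were HISAT2 2.2.1 and featureCounts 2.0.1, with FastQC 0.11.9, and the build was GRCm38. The annotation release and the strand and multi-mapping settings are unknown here. The deposited normalized table was not used. Symbols were matched for 55141 of 55401 identifiers, and gene models are GENCODE M21; 1 of 209 list genes (Ankh) was unmatched. Promoter windows are RefSeq's.

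Counts were filtered with filterByExpr, TMM-normalised and tested by edgeR (version 4.0.16, R 4.3.3; glmQLFit, glmQLFTest; group as the only term, 4 residual degrees of freedom), with Benjamini-Hochberg adjustment over 16260 genes and a threshold of 0.05. An SE is the fold change's size divided by the square root of F, and 95% intervals use the t distribution. Permutation tests were not used, since with 3 libraries a group the smallest exact p is 0.1. Replicates of a group differed by more than sampling noise (chi-square per degree of freedom 31.4 to 36.5). Scripts were tested on simulated data. Alternatives were DESeq2 1.42.0, limma-voom (limma 3.58.1), other normalisations, filters and lengths, a robust dispersion fit, a block for the replicate number and leaving out each library.

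Named per list are the 2 highest levels per kb and the highest and lowest fold change; Lrrc8e, Trpa1, Nfatc1, Nfat5 and Kcnma1, and cell type markers and genes given by reads alone, were named after their values were seen. Some genes that the naming rule picks are not reported here. Members and lists were chosen with earlier results of these data known.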

Additional observations from a re-analysis of the deposited data

How the results depend on the processing

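No channel gene passed the threshold under any of the 15 alternatives of the test, and neither did any further list gene that had passed the main filter on low counts. Listed genes that had not passed that filter were not looked up in the DESeq2 fit or in the edgeR fit without a filter. Over all genes, edgeR called 1 gene (Scin), DESeq2 82 (40 higher, 42 lower in cKO) and edgeR without a filter 3. The log2 fold changes of Trpv4 (0.07 to 0.17), Tmem63b (-0.23 to -0.05) and Lrrc8a (0.07 to 0.41) kept their sign with each library left out, whereas those of Piezo1 (-0.22 to 0.08), Piezo2 (-1.12 to 0.16), Trpm7 (-0.14 to 0.01) and Tmem63a (-0.07 to 0.08) did not. Signs turned without cKO 3 (Piezo1 and Tmem63a 0.08, Piezo2 0.02), without cKO 2 (Piezo2 0.16), without WT 3 (Piezo2 0.14), without WT 2 (Tmem63a 0.02) and without WT 1 (Trpm7 0.01); the cause was not tested. No test other than leaving out a library turned a sign; limma-voom gave -0.54 for Piezo2. Same-numbered libraries correlated at -0.0193, 0.0712 and 0.0235 in their deviations, and differently numbered ones at -0.068 to 0.0503. The labels do not say whether same-numbered libraries belong together, and with 3 libraries a group these correlations cannot decide it. With the replicate block edgeR called 1 gene, 0 channel genes, and gave -0.43 for Piezo2 and 0.30 for Lrrc8a. All 120 list medians moved by less than the median SE of the list. Per kb of coding sequence the levels were 125 for Trpv4, 51.2 for Tmem63a, 16.8 for Trpm7, 15 for Lrrc8a, 8.91 for Tmem63b, 2.8 for Piezo1 and 0.34 for Piezo2; per kb of exon bases of no other gene they moved to 26.7 for Lrrc8a and 2.86 for Piezo1. The lowest read number of a channel gene in a library was 34 (Piezo2, cKO 2).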

Other observations

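Lrrc8e, an LRRC8 partner gene that did not pass the filter, had 25, 30 and 1 reads in the cKO libraries, against 0, 2 and 0 reads in the WT libraries. Trpa1, a TRP channel gene of sensory neurons, had 15 reads in cKO 2 and 0 in each other library. Both were picked after their values were seen and were not tested. Of the promoter windows not shown, that of Lrrc8a held 3 GC box cores and the cyclic AMP response element core TGACGTCA, which 1.55% of all windows held.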
